A study of Homo sapiens with 6 samples.

Results

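The genes described are 39 members of the machinery that makes ribosomes: the rRNA precursor RNA45SN5, subunits and cofactors of RNA polymerase I, small nucleolar ribonucleoprotein (snoRNP) proteins, nucleolar scaffolds, and assembly factors of both ribosomal subunits. They are a list of gene names, out of 19775 genes on the array. Of the 39 members, 34 had a probe set naming that gene alone, and the brightest of these, by the mean of the 6 arrays, stood for the gene. NOP56, DKC1 and BOP1 were named only by probe sets that also name small RNA genes hosted in them. They are given separately and stand outside the counts. GNL3 and EBNA1BP2 matched no annotated probe set and were not analysed here. RNA45SN5 and 28 of the 38 protein-coding members had a mean over all arrays at or above 5 (log2), the floor used here, and these are called tested. POLR1A, UBTF, UTP15, MYBBP1A and RRP9 lay below it.

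HT-29, a human colorectal adenocarcinoma cell line, had been grown as xenografts in both femoral regions of Balb/c (nu/nu) mice injected at 6 to 8 weeks of age, and RNA came from dissected tumour tissue. Such athymic mice lack mature T cells and keep other immune cells. The control pool was RNA of tumours of control animals, the treated pool was RNA of tumours heated by an electromagnetic field for 30 min on day 18 and taken 4 h later, and the opposite-side pool was RNA of untreated tumours in the opposite femoral region of the treated animals. Each pool was hybridised to 2 arrays that the labels call technical replicates. How many animals entered a pool is not given in the sources used here. Each condition is therefore a single pool and was not tested against another. SDs are over the 2 arrays of a pool.

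A difference between pool means was called beyond array error where it exceeded 0.326 on the log2 scale (1.25-fold), all 4 array-to-array differences had 1 sign, and the pool with more signal reached 5 on each of its arrays. That limit is the 99th percentile of the absolute difference between the 2 arrays of a pool over the 7003 genes tested, whose median was 0.046 to 0.055. It measures array error and not the spread between animals. Counts of members are read beside the share of all genes tested that met the same rule. The colon epithelium was represented as labelled, with 12 of 14 markers above the floor. CDX1 was at the table's lowest value on all arrays, and CDX2 was below the floor at 2.53.

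Ribosomes are built in the nucleolus, where RNA polymerase I transcribes the rRNA genes into a long precursor holding the 18S, 5.8S and 28S rRNAs. Box C/D and box H/ACA snoRNPs modify the precursor, and large sets of assembly factors fold, cut and export the subunits. In colorectal carcinoma this pathway is commonly high, and many of its genes are known targets of the transcription factor MYC, which binds the E-box CACGTG.

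Because members that share a transcription factor may carry its site, the promoter sequences come first. RefSeq windows (GRCh38.p14) of 300 bases, from 250 before to 50 after the start, were at hand for 32 of the 38 protein-coding members, some with more than 1 window. NOP58, NOLC1, TCOF1, BOP1, RRP12 and RRS1 had none. The letters CACGTG, which read the same on both strands, were found in a window of 16 of the 32 genes, against 13.9% of 5918 genes tested with a window and 7.26% of all 35116 windows. The median GC content was 64.0% for member windows and 65.0% for windows of genes tested. The ETS core CCGGAAG, on either strand, was in 12 of 32 members (37.5%), 25.2% of genes tested and 10.3% of all windows. Inverted heat shock element units (GAA, 2 of any base, TTC, which can share its GAA with the ETS core) were in 1 of 32 members (3.13%), POLR1A, against 6.35% of genes tested and 6.77% of all windows. A match is a description of these letters and not a bound site.

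The stretches below run from 60 bases before to 30 after the start, 5′ to 3′ on the gene's strand, with the E-box in capitals. The first 5 are from members lower in the opposite-side pool than in the control pool beyond array error, on the deposited scale. DDX21 and NOP10 are shown beside them because they hold the same letters and were not lower by that rule. NAT10 lies at chr11:34105569-34105658 (plus strand), UTP4 at chr16:69132589-69132678 (plus strand), UTP20 at chr12:101280045-101280134 (plus strand), FBL at chr19:39846350-39846439 (minus strand), WDR43 at chr2:28894607-28894696 (plus strand), DDX21 at chr10:68956587-68956676 (plus strand) and NOP10 at chr15:34343107-34343196 (minus strand).
NAT10: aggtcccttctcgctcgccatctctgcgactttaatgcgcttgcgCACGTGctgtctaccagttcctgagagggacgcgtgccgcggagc
UTP4: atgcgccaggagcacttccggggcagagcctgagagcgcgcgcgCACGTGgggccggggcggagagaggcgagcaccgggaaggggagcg
UTP20: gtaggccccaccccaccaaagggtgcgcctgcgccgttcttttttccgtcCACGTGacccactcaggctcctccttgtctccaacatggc
FBL: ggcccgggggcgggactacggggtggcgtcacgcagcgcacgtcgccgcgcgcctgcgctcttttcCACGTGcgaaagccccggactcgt
WDR43: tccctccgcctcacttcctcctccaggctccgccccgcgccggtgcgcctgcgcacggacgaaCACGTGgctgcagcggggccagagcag
DDX21: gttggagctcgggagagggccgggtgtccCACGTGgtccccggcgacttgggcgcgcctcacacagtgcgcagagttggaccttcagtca
NOP10: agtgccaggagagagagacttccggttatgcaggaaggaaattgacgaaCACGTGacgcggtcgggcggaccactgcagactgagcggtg
In NAT10 the E-box began at position -15 from the start, in UTP4 at -16, in UTP20 at -10, in FBL at 7 and in WDR43 at 4. NOP2 held one at 36, outside the printed stretch, and the NOP16 window held none. NOP10 had 2, at -170 and -11, and DDX21 had 1 at -31 in one of its windows.

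The signal of the probe sets annotated to the rRNA precursor gene RNA45SN5 was lower after heating than in the control pool. Which part of the transcript these probe sets cover was not located here, so signal from the precursor and from mature rRNA cannot be told apart. The representing RNA45SN5 probe set read 6.58 and 6.46 on the control arrays, 5.42 and 5.22 on the treated arrays and 6.15 and 6.13 on the opposite-side arrays (log2). No arrays of different pools overlapped. Treated minus control was -1.20, a 2.30-fold difference, treated minus opposite side was -0.82, and opposite side minus control was -0.38. The other probe set read 5.795 and 5.857, 4.41 and 4.19, and 4.795 and 4.805 in the same order. It had a mean of 4.98, below the floor, as did its treated and opposite-side pools, so no order of those pools is read from it. Its control pool lay above both, with measured differences of -1.52 for treated minus control and -1.03 for opposite side minus control. With arrays set to a common level of their spike-in controls (below), the representing probe set kept its treated minus opposite-side difference past the limit, at -1.005, while opposite side minus control came to -0.21, within array error. The rRNA genes are a family of near-identical repeats, so the probe sets cannot tell the copies apart.

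Of the control probe sets for mature rRNA on the same arrays, that for the middle of 18S rRNA had the order of the representing RNA45SN5 probe set, at 13.12 ± 0.014 in the control pool, 12.72 ± 0.013 in the opposite-side pool and 12.47 ± 0.013 in the treated pool, with no overlap of arrays. The others had different orders. For 28S rRNA the 5′ probe set was at 10.17 ± 0.0021 in the control pool, 11.98 ± 0.016 in the treated pool and 10.41 ± 0.0071 in the opposite-side pool (SD, 2 arrays), which is 1.81 higher in treated than in control. The 28S middle probe set was at 9.04, 9.99 ± 0.26 and 8.93 ± 0.011, and the 28S 3′ probe set gave 2.37, the table's minimum, for all pools. For 18S rRNA, treated minus control was 0.21 at the 5′ end, -0.65 in the middle and -0.16 at the 3′ end. The 18S probe sets hence differed in sign along 1 molecule. Neither the precursor nor mature rRNA carries a poly(A) tail, and the labels give no primer for the labelling of cRNA.

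**Figure D1:**
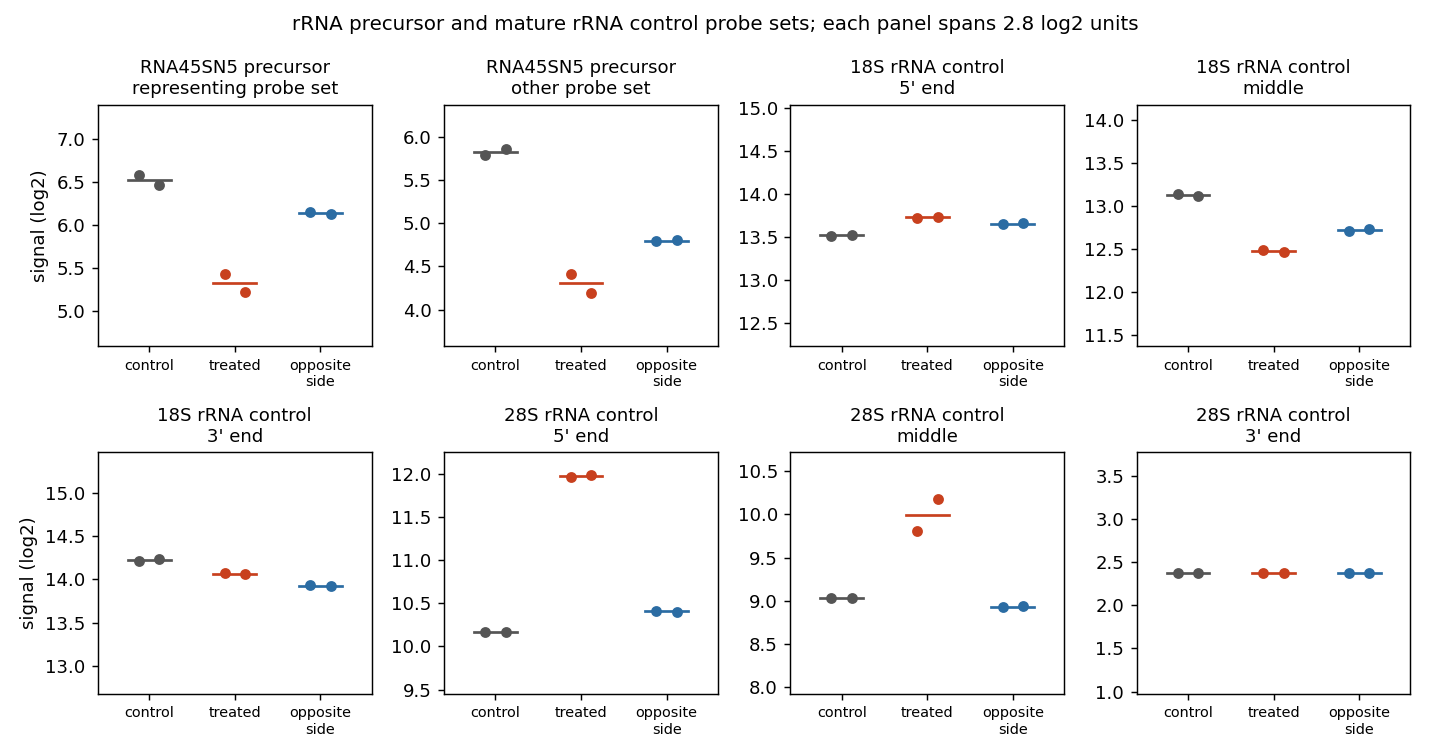
Signal (log2) on each array for the 2 RNA45SN5 probe sets and the 6 control probe sets for 18S and 28S rRNA; points are arrays, bars are pool means, and every panel spans the same log2 range. Both RNA45SN5 probe sets and the 18S middle probe set are highest in the control pool, whereas the 28S 5′ probe set is highest in the treated pool at 11.98.

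On the deposited scale most protein-coding members were lowest in the opposite-side pool, where RNA45SN5 was lowest in the treated pool. Of the 28 tested, 19 were highest in the control pool, 9 in the treated pool and 0 in the opposite-side pool, against 39.2%, 32.5% and 28.3% of all genes tested. The opposite-side pool was the lowest for 17 members, the treated pool for 6 and the control pool for 5, against 35.4%, 32.7% and 32.0% of all genes tested. The median difference was -0.20 for opposite side minus control, -0.10 for treated minus control and 0.12 for treated minus opposite side, where the medians of all genes tested were -0.02, -0.01 and 0.01. With arrays set to a common level of their spike-in controls, the treated minus opposite-side median of the members was -0.07. Of the 28, 18 lay below 0, a count not taken over all genes on that scale. The median of all genes tested was then -0.18, so by construction the members lay 0.10 above it, as on the deposited scale. Opposite side minus control came to -0.02 for the members and 0.16 for all genes. The order of the treated and opposite-side pools hence turned with the scale, and the place of the members relative to all genes did not. The comparisons share pools, so these medians are not independent of each other. In RNA of whole tumours, fewer cells of a type and less RNA per cell cannot be told apart.

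Arrays of the opposite-side and control pools did not overlap for 21 members lower (41.8% of all genes tested) and 3 higher (34% of all), NPM1, NOP10 and NIP7. Beyond array error, 9 of the 28 members were lower (32.1%; 11.3% of all genes tested) and 0 were higher (7.57% of all). The 9 were TCOF1, NAT10, UTP4, NOP16, NOP2, FBL, RRP12, WDR43 and UTP20. Past 1.5-fold, 3 members were lower, TCOF1, NAT10 and UTP4 (10.7%; 2.08% of all), and 0 were higher (1.41% of all). At 2-fold, 0 members were lower (0.143% of all) and 0 higher (0.214% of all). Setting the arrays to the same median of 40 spike-in control probe sets, which were themselves 0.18 lower on the opposite-side arrays, raised each opposite side minus control difference by 0.175. All genes tested then had a median of 0.16, with 3.86% lower and 21.2% higher. On that scale TCOF1, NAT10, UTP4 and NOP16 were lower, 0 members were higher and the member median was -0.02. A scaling moves all genes alike, so by construction the member median minus that of all genes is -0.18 on either scale. On that scale 15 of the 28 members lay below 0, where 23 did on the deposited one. Of all 7003 genes tested, 3771 lay below 0 on the deposited scale, and this was not counted on the spike-in scale.

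In the treated pool 5 members were lower than in the control pool beyond array error (17.9%; 8.97% of all genes tested), namely FBL, POLR1B, UTP4, POLR1C and TCOF1, and 0 were higher (10.1% of all). Without control array 1 the count fell to 3. TCOF1, at -0.329, stood just past the limit and POLR1D, at -0.320, just short of it. Arrays did not overlap for 18 members lower (40.1% of all) and 9 higher (34.6% of all). Past 1.5-fold there were 0 members in either direction (1.5% of all lower, 2.63% higher), and at 2-fold likewise 0 (0.0857% lower, 0.514% higher), whereas RNA45SN5 was past it. Against the opposite-side pool 4 members were higher in the treated pool, TCOF1, NAT10, NOP2 and NOP16 (14.3%; 8.82% of all), and 0 were lower (5.4% of all). Arrays did not overlap for 19 members higher (38.2% of all) and 4 lower (33.1% of all), FBL, PES1, POLR1C and POLR1D. Past 1.5-fold there were again 0 (1.71% of all higher, 0.928% lower), as at 2-fold (0.214% higher, 0.0428% lower). The treated minus opposite-side calls depended on the scale: with the spike-in scaling, which moved each of these differences by -0.19, 0 members were higher and FBL, POLR1C and POLR1D were lower, while 21.3% of all genes were lower and 2.63% higher. The spike-in probe sets themselves had a median difference of 0.33 there, and of 0.105 for treated minus control, where the scaling moved each difference by -0.014. The scaling used the median of each array, so its size depends on how that median is taken. NOP16, at 0.329, was also just past the limit.

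**Figure D2:**
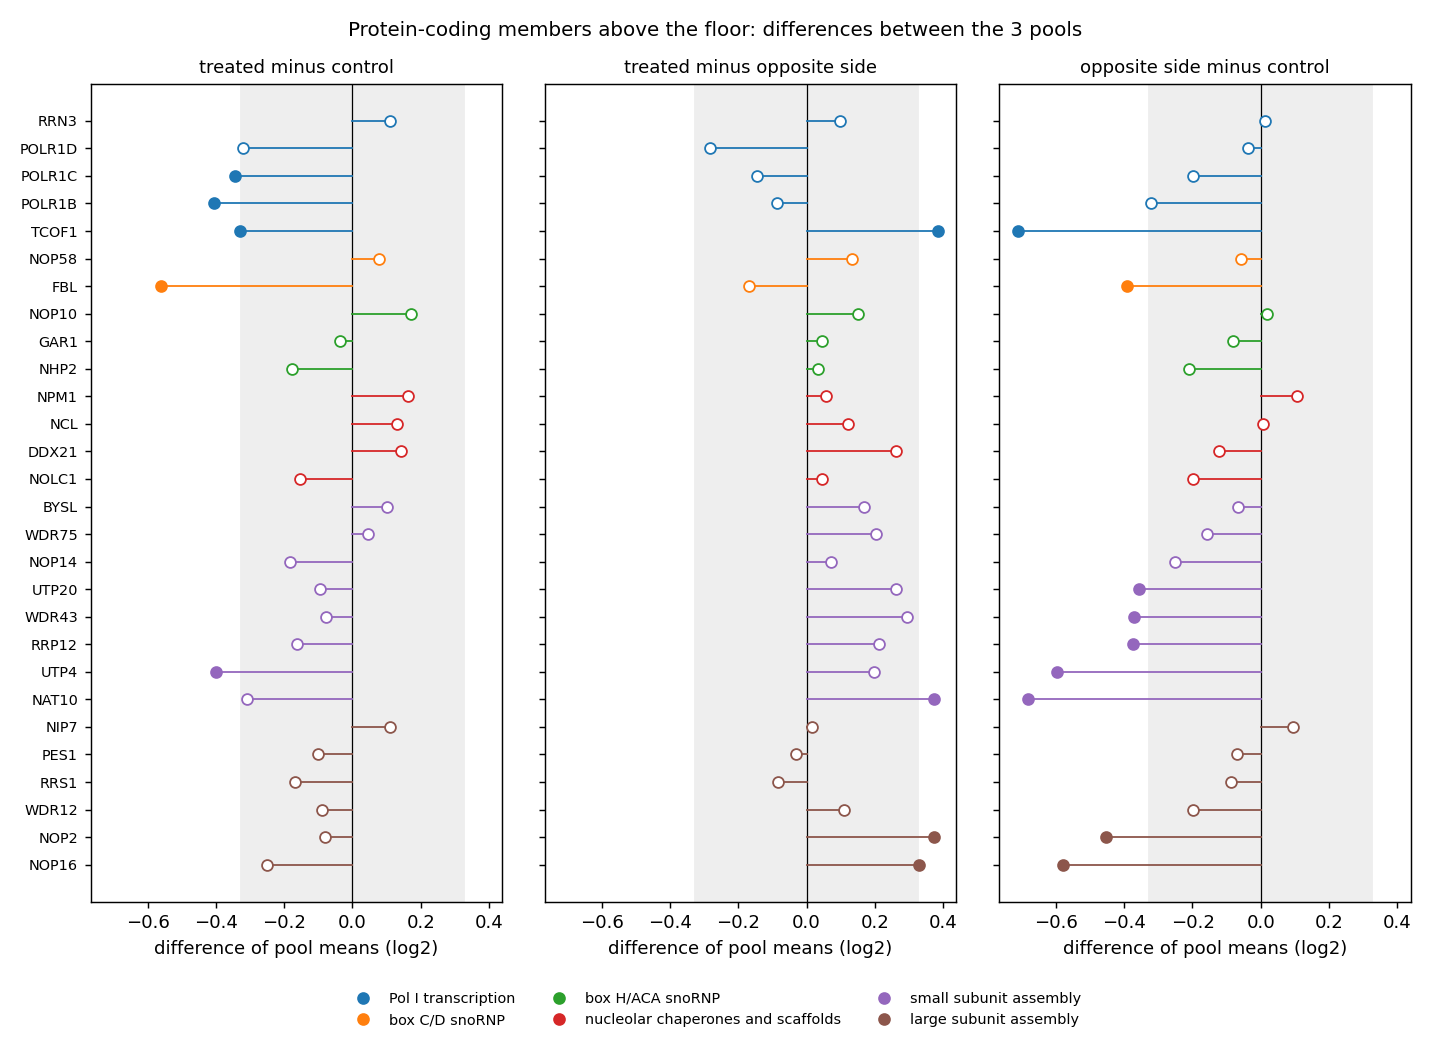
Difference of pool means (log2) for the 28 tested protein-coding members in the 3 comparisons, coloured by role; filled points differed beyond array error and the grey band is the limit of 0.326. Filled points are all at the left in opposite side minus control, where TCOF1 reaches -0.71 and NAT10 -0.68.

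Among the polymerase I genes, TCOF1 encodes treacle, a nucleolar phosphoprotein that helps recruit polymerase I. It read 6.96 and 6.85 on the control arrays, 6.64 and 6.52 on the treated arrays and 6.18 and 6.21 on the opposite-side arrays. The 3 pools did not overlap, and the opposite-side pool was 1.64-fold below the control (-0.71). A further TCOF1 probe set differed by -0.47 in that comparison and by -0.37 for treated minus control.

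The polymerase subunits were lower in the treated pool in part only. POLR1B, a large catalytic subunit, read 6.84 and 6.77 in the control pool, 6.47 and 6.33 in the treated pool and 6.50 and 6.47 in the opposite-side pool. The treated and opposite-side arrays met at 6.47, and both pools lay below the control, at -0.41 and -0.32. Another POLR1B probe set at a mean of 6.18 differed, with 0.02 for treated minus control and -0.58 for opposite side minus control, so the probe sets disagreed on the heated tumours. POLR1C, which polymerases I and III share, differed by -0.34 for treated minus control (6.02 ± 0.15 against 6.37 ± 0.014) and by -0.20 for opposite side minus control.

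POLR1D, the partner of POLR1C, did not pass the limit in any comparison on its representing probe set. Its arrays read 9.28 and 9.31 in the control pool, 8.97 and 8.98 in the treated pool and 9.28 and 9.24 in the opposite-side pool. Control and opposite-side arrays overlapped and both treated arrays lay below them, with -0.32 and -0.28 for the treated pool against control and opposite side. Its other probe sets above the floor, at means of 6.93 and 7.67, did not set the treated pool apart from the opposite side (-0.01 and 0.02), and lay below control in both, at -0.53, beyond array error, and -0.18 in the treated pool.

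RRN3, the initiation factor that joins polymerase I to the promoter, differed by 0.11 for treated minus control and 0.01 for opposite side minus control. A probe set that RRN3 shares with its pseudogenes RRN3P1 and RRN3P2, at a mean of 6.00, differed by -0.44 for treated minus opposite side. UBTF, which binds the rRNA gene promoter, and POLR1A, the largest subunit, had means of 4.73 and 4.33, below the floor. MYBBP1A, a nucleolar regulator of polymerase I, was at 4.95 ± 0.078, 4.96 ± 0.085 and 4.84 in the control, treated and opposite-side pools. These levels allow no statement on differences.

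Fibrillarin, FBL, is the ribose methyltransferase of box C/D snoRNPs and had the largest treated minus control difference of the 28 members. It read 10.07 and 10.08 on the control arrays, 9.51 and 9.52 on the treated arrays and 9.67 and 9.69 on the opposite-side arrays. The arrays of the 3 pools were separate, and treated lay 1.48-fold below control (-0.56) while the opposite side lay 1.31-fold below (-0.39). FBL had the order of RNA45SN5, with control highest and treated lowest, but its treated minus opposite-side difference of -0.17 was within array error. The treated pool was the lowest for 6 of the 28 members and 32.7% of all genes tested, whichever pool was highest. Having treated as the lowest pool is hence not particular to FBL.

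NOP58, which sits beside FBL in the same snoRNP, did not share that order, at 10.39 ± 0.019, 10.46 ± 0.0064 and 10.33 in the control, treated and opposite-side pools. The brighter probe set of NOP56, the partner of NOP58, is annotated also with SNORD57, SNORD86, SNORD110 and MIR1292. It read 10.67 and 10.66 in the control pool, 10.35 and 10.33 in the treated pool and 10.35 and 10.33 in the opposite-side pool. Treated and opposite-side arrays overlapped and both lay below control, at -0.323 and -0.322, just within the limit.

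The box H/ACA proteins, which belong to the snoRNPs that change uridine to pseudouridine, differed little between the pools. GAR1 differed by -0.04 for treated minus control and -0.08 for opposite side minus control, NHP2 by -0.18 and -0.21, and NOP10 by 0.17 and 0.02. None of the 3 passed the limit. DKC1, the pseudouridine synthase, had 3 probe sets, all annotated also with SNORA56 and MIR664B. They differed by -0.14, -0.05 and -0.49 for treated minus control and by -0.23, -0.16 and -0.62 for opposite side minus control. The last of them was lower than control beyond array error in both comparisons, and the others were not.

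The nucleolar chaperones and scaffolds did not pass the limit in any comparison on their representing probe sets. NCL (nucleolin), a chaperone of rRNA, was at 10.76 ± 0.022, 10.89 ± 0.045 and 10.76 ± 0.0049 in the control, treated and opposite-side pools. DDX21, an RNA helicase active in rRNA transcription and processing, was at 9.85 ± 0.017, 9.99 ± 0.016 and 9.73 ± 0.028. NPM1 (nucleophosmin) differed by 0.16 for treated minus control on the representing probe set and by -0.08 and -0.23 on its others, so its sign rested on the probe set. NOLC1, a phosphoprotein that gathers snoRNPs, differed by -0.15 and by -0.20 for treated and opposite side against control. A dimmer NOLC1 probe set, at a mean of 5.42, differed by 0.37 for treated minus opposite side.

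Of the roles, small subunit assembly held most of the members that were lower in the opposite-side pool. All 8 tested lay below control there, as did 3771 of the 7003 genes tested. Of the 8, 5 were lower beyond array error (11.3% of all genes tested), and their median was -0.36 over all 8. On the spike-in scale the 2 of them called were NAT10 and UTP4. The same 8 differed by a median of -0.13 for treated minus control, with UTP4 called (8.97% of all). NAT10, which acetylates cytidines of 18S rRNA, read 7.33 on both control arrays, 7.01 and 7.04 on the treated arrays and 6.62 and 6.68 on the opposite-side arrays. The 3 pools were separate, with treated between the others. The opposite-side pool was 1.60-fold below control (-0.68) and 1.30-fold below treated.

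UTP4, WDR43 and WDR75 belong to the small subunit processome module that is linked to precursor transcription. UTP4 read 8.61 and 8.70, 8.33 and 8.18, and 8.06 and 8.05 in the control, treated and opposite-side pools. The pools did not overlap, and opposite side lay 1.51-fold below control (-0.60). Its other probe set, at a mean of 7.27, gave only -0.16 there and -0.19 for treated minus control. WDR43 read 7.32 and 7.29, 7.20 and 7.25, and 6.92 and 6.95 in the same order, so that the opposite-side pool alone stood well below, at -0.37. WDR75 differed by -0.16 and UTP15, of the same module, had a mean of 4.90 below the floor.

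RRP12, which takes part in the export of pre-40S particles, read 7.14 and 7.17 in the control pool, 7.02 and 6.97 in the treated pool and 6.77 and 6.80 in the opposite-side pool. The order was again control, treated, opposite side, with -0.38 between the outer pools. UTP20, a large scaffold of early precursors, was at 5.15 ± 0.11, 5.06 ± 0.0078 and 4.79 ± 0.071, the last below the floor, so its difference of -0.36 rests on dim signal. NOP14 differed by -0.25 and BYSL, a late 40S factor, by -0.07 for opposite side minus control. RRP9, the U3 snoRNP protein, was listed at 3.59 on all 6 arrays, which leaves no difference to describe.

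Among the large subunit factors, NOP16 and NOP2 were lower in the opposite-side pool than in control beyond array error (11.3% of all genes tested). The other 4 tested were within array error. On the spike-in scale NOP16 was still called and NOP2 was not. NOP16 read 8.52 and 8.59 in the control pool, 8.32 and 8.29 in the treated pool and 7.95 and 8.00 in the opposite-side pool. The pools were separate, with -0.58 for opposite side minus control, and a further NOP16 probe set gave -0.59. NOP2, a methyltransferase of 28S rRNA, read 6.49 and 6.50, 6.37 and 6.46, and 6.06 and 6.02 in the same order. Here control and treated were close, at -0.08, and opposite side lay apart, at -0.45.

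PES1 and WDR12 form the PeBoW complex with BOP1, which acts in the processing of the large subunit rRNAs. They differed by -0.10 and -0.09 for treated minus control and by -0.07 and -0.20 for opposite side minus control. BOP1 itself, on a probe set annotated also with MIR7112, was at 5.57 ± 0.026, 5.41 ± 0.13 and 5.35 ± 0.035. RRS1, which helps bring the 5S particle into the subunit, differed by -0.17 and -0.09. NIP7 was above control in both comparisons, by 0.11 and 0.10, and its other probe set differed by 0.31 and 0.05. None of these passed the limit.

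**Figure D3:**
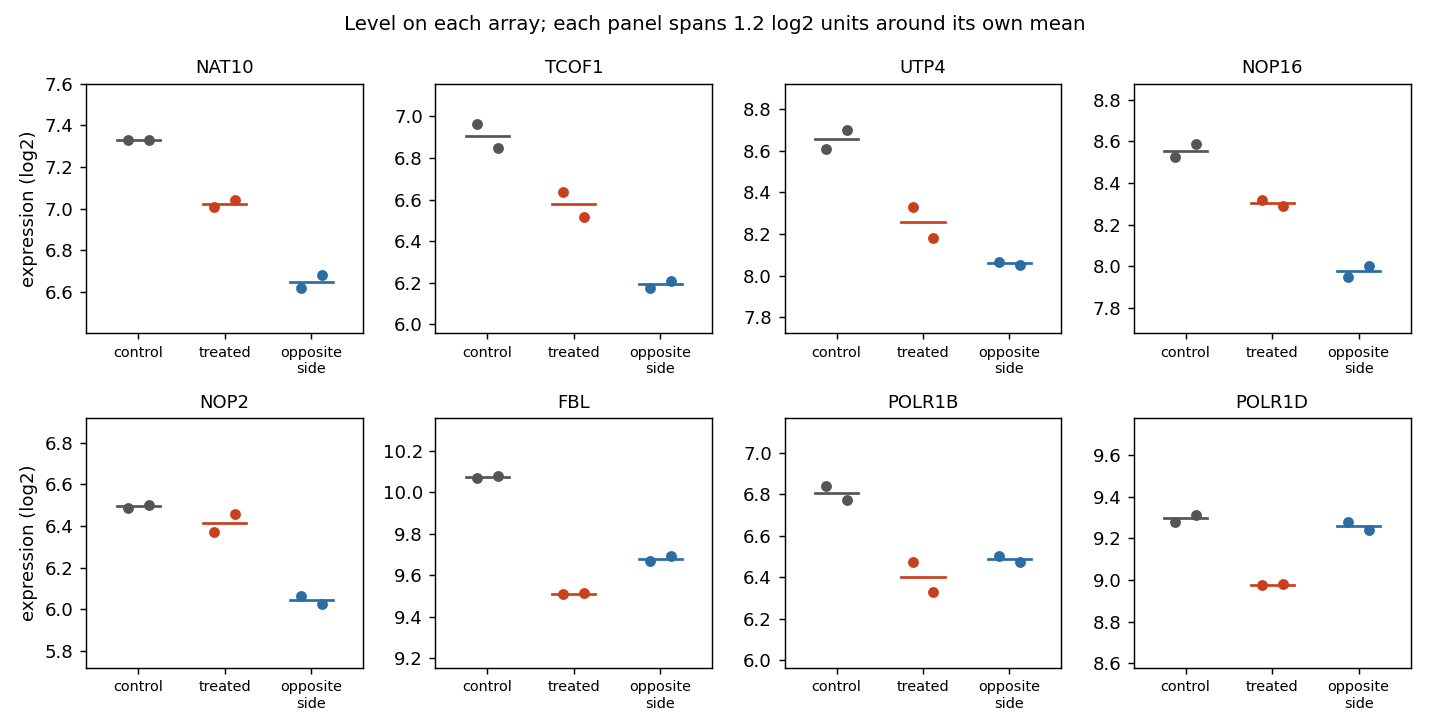
Level (log2) on each array for 8 members; points are arrays, bars are pool means, and each panel spans the same log2 range around its own mean. NAT10, TCOF1, UTP4, NOP16 and NOP2 are lowest in the opposite-side pool, UTP4 within the limit of the treated pool. FBL, POLR1B and the POLR1D probe set shown are lowest in the treated pool, each within the limit of the opposite-side pool. That POLR1D probe set is also within the limit of the control pool.

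Members with more than 1 probe set above the floor allowed a check within the arrays. There were 10 such protein-coding genes with 13 further probe sets. For opposite side minus control the further probe sets had the sign of the representing one in 8 of the 10 genes, all of the probe sets being negative in 7. For treated minus control the signs were shared in 7, and for treated minus opposite side in 6.

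Other genes of the pathway, from lists that held no member, had medians below 0 in opposite side minus control on the deposited scale. Of 37 tested large subunit factors 12 were lower than control beyond array error and 2 higher, with a median of -0.22. Of 36 small subunit factors 10 were lower and 1 higher (median -0.16), of 25 genes of snoRNP assembly and the RNA exosome 3 were lower and 0 higher (median -0.10), and of 13 polymerase I subunits and initiation factors 3 were lower and 1 higher (median -0.12). All genes tested had 11.3% lower and 7.57% higher, which the snoRNP and exosome count is near. On the spike-in scale, which raises each difference by 0.175, the large subunit median stays below 0 and the other 3 lie above 0, where the median of all genes is 0.16. PWP2, a processome scaffold, was at 6.22 ± 0.026, 6.02 ± 0.10 and 5.37 ± 0.12 in the control, treated and opposite-side pools, and TBL3, of the same complex, differed by -0.69 for opposite side minus control. The large subunit factor NOC3L differed by -0.74 there, the exosome subunit EXOSC2 by -0.68, the polymerase I subunit POLR1G by -0.59 and the promoter factor TAF1C by -0.55. POLR2K, a subunit that the polymerases share, was 0.36 higher.

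For treated minus control the medians of these lists were closer to 0 than in that comparison, except for the snoRNP and exosome genes. The medians were -0.17 for large subunit factors (6 lower, 0 higher), -0.10 for small subunit factors (5 lower, 2 higher), -0.18 for snoRNP assembly and exosome genes (5 lower, 1 higher) and -0.08 for the polymerase I list (1 lower, 0 higher), where 8.97% of all genes tested were lower and 10.1% higher. PELP1, of the complex that matures large subunits, differed by -0.72, but its treated arrays lay far apart (5.21 ± 0.37). For treated minus opposite side the medians were 0.04, 0.05, -0.05 and 0.12 in the same order. The spike-in scaling, which moves each by -0.19, puts all 4 below 0, where the median of all genes tested is -0.18. KRR1 was the 1 small subunit factor more than 1.5-fold higher in treated than control, by 0.63, and is named for that after its value was seen.

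**Figure D4:**
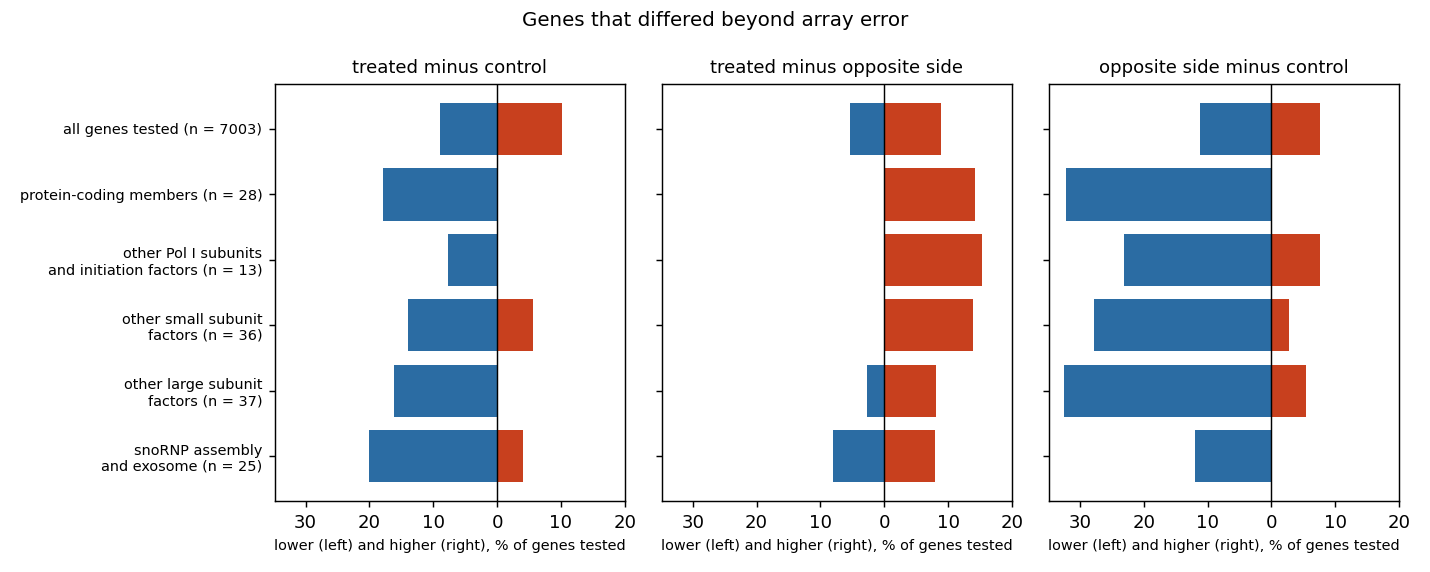
Percent of genes tested in each list that were lower (left, blue) or higher (right, red) beyond array error in the 3 comparisons, with the number tested beside each list. In opposite side minus control the members (32.1%) and the large and small subunit lists all extend further to the lower side than all genes tested (11.3%).

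The E-box can be set beside these differences. On the deposited scale, 7 members lower in the opposite-side pool beyond array error have a promoter window. Of these 7, 6 held CACGTG (FBL, NOP2, UTP4, UTP20, WDR43 and NAT10), UTP20 being a call on dim signal. Of the 16 other tested members with a window 6 did. The remaining 4 genes with the letters, RRP9, MYBBP1A, GNL3 and EBNA1BP2, were not tested. Over all genes tested the shares were 14.98% of 654 genes lower in that comparison and 13.8% of the 5264 others. On the spike-in scale the members lower were TCOF1, NAT10, UTP4 and NOP16. NAT10 and UTP4 held the letters, NOP16 did not and TCOF1 had no window, so the contrast depends on the scale. MYC, whose product binds the E-box, was at 7.24 ± 0.091 in the control pool, 8.23 ± 0.021 in the treated pool and 7.70 ± 0.091 in the opposite-side pool, so its transcript was higher than control in both other pools. MAX, the partner of MYC, was at 7.22 ± 0.034, 7.50 ± 0.056 and 6.97 ± 0.066.

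Signal of some marker lists for other cell types, and measures of RNA quality, moved between the same pools. The hosts were mice and the arrays are human, so host cells and tumour cells cannot be told apart in the marker signal. Of 12 fibroblast and matrix markers 4 were above the floor, COL6A3, PDGFRB and SPARC were at the table's minimum, and the summed linear signal of the list was 390 to 428 in the control pool, 828 to 839 in the treated pool and 699.8 to 715 in the opposite-side pool. Of 12 skeletal muscle markers 3 were above the floor, MYL1 and CKM were at the lowest value, and the sums were 272 to 280.2, 337 to 346 and 285.2 to 285.4. Within this list MYL11 differed by 1.60 and TNNT1 by -0.45 for treated minus control, both beyond array error. For leukocyte markers, with 1 above the floor, the sums were 3071 to 3180, 3637 to 3686 and 3418 to 3508. For endothelium they were 61.2 to 62.6, 60.8 and 58.1 to 58.6. For adipocyte and epidermis they were 408 to 421, 394 to 420 and 459 to 460. No red blood cell marker was above the floor. The sums for 14 colon epithelium markers were 34317 to 34362, 36939 to 37246 and 37735 to 37740.0. For ACTB the 5′ probe set was at 7.79, 8.91 and 9.07 in the control, treated and opposite-side pools and the 3′ probe set at 13.40, 13.62 and 13.55, while for the 5′ end of GAPDH they were 11.60, 11.14 and 11.59. The part of these measures in the member differences was not tested.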

How the data were processed

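RNA of 3 pools was measured on 6 human Affymetrix arrays with 54675 probe sets. The authors deposited log2 values (the scale was read from their range), made with GCRMA per the submitters' processing notes, without a version. This method corrects background, applies quantile normalization and summarises probes, so shifts shared by all genes are removed. Of the probe sets, 41097 named 1 gene, 1801 several and 11777 none, through the platform annotation. Of those naming 1 gene, 41043 were matched to a current symbol by Entrez identifier. Multi-gene probe sets stayed out of the counts. The members and lists were chosen with earlier results of these data known. All members could be named, and of other lists the 3 tested genes with the largest difference in any comparison. Arrays have no read depth, and precision is limited by how few there are. Rules were tested on simulated data. Coordinates are those of the RefSeq promoter table. The alternatives covered floors, probe sets, scaling, averaging, sign agreement and left-out arrays. Scripts ran in Python 3.11.15 with pandas 2.3.3, numpy 2.4.6 and matplotlib 3.10.9.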

Additional observations from a re-analysis of the deposited data

How the results depend on the processing

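With 1 pool per group, the limits below concern array error and scaling, not animals. Outside the scalings and the 2-fold rule, the share of all genes tested is not given for these alternatives. Their counts show only how the member calls move with the setting. With a floor of 4 the members lower in treated minus control were 3 and those higher in treated minus opposite side 2. At that floor 6 of 32 members tested were lower in opposite side minus control. With a floor of 6 the treated minus control median was -0.16 and 1 member was lower in treated minus opposite side. The mean of all probe sets gave a treated minus opposite-side median of 0.14. Without the _x_at and _s_at kinds that median was 0.14, the opposite side minus control median -0.18, and 2 members were lower in treated minus control. Of the 18 members tested that way, 6 were lower in opposite side minus control. With arrays set to the same median, the medians were 0.0818 for treated minus opposite side and -0.15 for opposite side minus control. With the spike-in scaling, treated minus opposite side had 3 members lower, 0 higher and a median of -0.0725, and opposite side minus control had 4 lower, 0 past 1.5-fold and a median of -0.0235. With the 95th percentile as array error, 8 members were lower in treated minus control, and 1 was lower and 7 higher in treated minus opposite side. At 2-fold, 0 members were past the limit in opposite side minus control. Counting probe sets that name several genes, an alternative chosen after seeing the data, gave a treated minus opposite-side median of 0.11. Leaving out each array in turn gave 3 to 6 members lower in treated minus control, with medians of -0.17 to -0.092. The medians ran from 0.0995 to 0.13 for treated minus opposite side and from -0.20 to -0.17 for opposite side minus control. The 3 came without control array 1. Leaving 1 out also gave 3 to 5 higher in treated minus opposite side and 8 to 11 lower in opposite side minus control. Without it or without opposite-side array 2, 4 members were past 1.5-fold in opposite side minus control, and without control array 2 there were 2. The replicate numbers are technical. Requiring the sign only in same-numbered pairs (replicate block) left 5, 0 and 9 members lower and 0, 4 and 0 higher in the 3 comparisons, as without it. Other causes were not tested. The RNA45SN5 difference for treated minus control was -1.30 to -1.10 with an array left out.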

Other observations

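Some genes that host small nucleolar RNAs in their introns were lower in the treated pool. Of 18 such genes on a list of hosts, 7 had a probe set of their own and 5 were tested, and 4 of these were lower than in the control pool beyond array error (8.97% of all genes tested), with a median of -0.44. EPB41L4A-AS1 was at 10.10 ± 0.011 in the control pool, 9.24 ± 0.032 in the treated pool and 9.79 ± 0.039 in the opposite-side pool. ZFAS1 was at 11.42 ± 0.022, 10.82 ± 0.018 and 11.30 ± 0.062, and SNHG32 at 9.01 ± 0.013, 8.57 ± 0.059 and 8.96 in the same order. Treated was the lowest pool for all 3, as it was for 32.7% of all genes tested. RNA45SN5 and FBL also had this order, FBL with treated within array error of the opposite side. The fourth gene, SNHG17, differed by -0.41 and is named here after its value was seen. The fifth, TAF1D, which also encodes a polymerase I promoter factor, was 0.28 higher than control, within array error, and 0.34 higher than the opposite side, beyond it. Against the opposite-side pool, 3 of the 5 were lower in the treated pool (5.4% of all genes tested). TAF1D was the 1 higher (8.82% of all). These calls are on the deposited scale. With the spike-in scaling, 21.3% of all genes were lower in that comparison and 2.63% higher.

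Of the regulators of polymerase I, PIH1D1 was lower than control in both other pools, by -0.48 in the treated pool and -0.42 in the opposite-side pool. The snoRNP assembly factor ZNHIT6 was higher in the treated pool than in either other pool, by 0.49 against control and 0.66 against the opposite side.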
